A study of Mus musculus with 16 samples.

Results

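ERK feedback and response genes are the genes that ERK signalling switches on, among them the inhibitors that then switch the pathway off. The 10 genes described here were taken by name from the 21977 gene rows of the table. The rule uses no measured value, but the list was drawn up with earlier results of these data known. They are 3 MAP kinase phosphatases (Dusp4, Dusp5 and Dusp6), 4 Sprouty and Spred inhibitors (Spry2, Spry4, Spred1 and Spred2) and 3 ERK-induced transcription factors (Egr1, Etv4 and Etv5). Ribosome-protected fragments (RPFs), which are the mRNA pieces that translating ribosomes cover, and total RNA were sequenced from each of 8 mouse embryonic stem cell cultures, giving 16 libraries. The 3 Nat1-/- cultures were the clones B12, B2 and C3. The 3 Nat1+/- cultures were the clones A7, B4 and C1, and the 2 wild-type (WT) cultures were WTex1 and WTex2. Values are listed in that order of cultures throughout. All of them were RF8 cells, a mouse embryonic stem cell line, kept on gelatin in medium with LIF, the cytokine that holds such cells in self-renewal, so no group without LIF was compared. By the labels each targeted culture is a clone of its own, whereas both WT cultures are of 1 line, so that clonal differences enter the spread of the targeted groups alone. Nat1 is an earlier symbol for Eif4g2, which encodes DAP5, a scaffold of translation initiation related to eIF4G but unable to bind eIF4E, the protein that holds the mRNA cap. The design asks which mRNAs are read differently by ribosomes when it is lost.

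In embryonic stem cells the growth factor FGF4, bound by FGF receptors, activates RAS and through it the kinases RAF, MEK and ERK, and ERK activity is known for moving the cells out of self-renewal towards differentiation. Active ERK induces transcription factors such as EGR1, ETV4 and ETV5, whose mRNAs are widely used as readouts of the pathway. It also induces its own brakes. DUSP phosphatases remove phosphate from ERK itself, and Sprouty and Spred proteins act upstream, at the step where the receptor activates RAS and RAF.

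By the RefSeq names table the 10 genes lie on chromosomes 8 (Dusp4), 19 (Dusp5), 10 (Dusp6), 14 (Spry2), 18 (Spry4 and Egr1), 2 (Spred1), 11 (Spred2 and Etv4) and 16 (Etv5). Only Dusp6 shares its locus there with another listed gene, the non-coding RNA gene Gm34921, and the strand setting of the counting is not given in the sources used. RefSeq promoter windows of the assembly GRCm38.p6, cut to the 250 bases before the transcription start, were matched for 6 of the 10 genes and gave 7 windows, Etv5 having 2. Dusp4, Spry4, Egr1 and Etv4 had no entry. The windows of Dusp5 and Dusp6 are shown because these phosphatases of one family differed in opposite directions between Nat1-/- and Nat1+/- total RNA. Dusp5 lies at chr19:53528895-53529144 and Dusp6 at chr10:99262981-99263230, both on the plus strand, and each is written 5′ to 3′ with matches to a CArG box, the motif that serum response factor binds, in capitals.
Dusp5: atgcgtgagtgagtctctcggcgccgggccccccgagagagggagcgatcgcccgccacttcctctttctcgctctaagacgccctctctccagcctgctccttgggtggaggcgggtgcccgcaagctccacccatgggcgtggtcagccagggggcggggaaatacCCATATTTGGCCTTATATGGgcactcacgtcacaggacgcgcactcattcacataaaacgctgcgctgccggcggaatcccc
Dusp6: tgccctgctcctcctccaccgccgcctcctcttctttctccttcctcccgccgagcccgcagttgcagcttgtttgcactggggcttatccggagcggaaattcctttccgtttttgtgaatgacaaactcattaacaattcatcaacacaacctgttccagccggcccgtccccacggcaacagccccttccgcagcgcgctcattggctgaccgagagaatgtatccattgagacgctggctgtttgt
Dusp5 held a pair of adjacent CArG boxes, CCATATTTGG at positions -82 to -73 and CCTTATATGG at positions -72 to -63 relative to the start. Of 32851 RefSeq windows of that length, 1.47% held a CArG box on either strand and 0.0183%, or 6 windows, held 2 or more. The Dusp6 window, whose other strand was searched as well, held none, nor did the windows of Spry2, Spred1, Spred2 and Etv5. The other motifs searched on both strands were the ETS motif CCGGAAGT (in 2.88% of all windows), the AP-1 motif TGANTCA (6.75%), the cyclic AMP response element TGACGTCA (1.55%) and the EGR motif GCGGGGGCG (2.57%). None of these letters stood in the 7 windows. The search describes letters in a window, no binding was measured, and a link to the values below was not tested.

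Depth ran from 17.5 to 23.8 M (mega-reads) for RPF and from 13.2 to 42.6 M for total RNA. The total RNA libraries of B12, WTex1 and WTex2 were deep (42.5, 42.6 and 33.6 M reads) and the other 5 held at most 16.4 M, so depth moved with genotype in part. Values below are normalised reads as deposited, which are counts already divided by a factor per library. That factor sets the median gene of all libraries of an assay equal. Every library detected all 10 genes, with at least 30 recovered reads in RPF (Dusp4 in B12) and 13 in total RNA (Egr1 in C3), and all 10 passed the filter of a mean of at least 10 normalised reads. The targeted gene Eif4g2 had mean RPF values of 1042 ± 105 in Nat1-/- (SD, n = 3), 8381 ± 1636 in Nat1+/- (SD, n = 3) and 15764 ± 2690 in WT (SD, n = 2), with no overlap between genotypes. In total RNA it had 8710 ± 3582, 12700 ± 2390 and 37458 ± 14812 in the same order, and Nat1-/- and Nat1+/- overlapped (log2 difference -0.62, limma adjusted p = 0.137). The RPF values thus separate all 3 genotypes as labelled and the total RNA values do not. Markers of embryonic stem cells (8 of 8 detected in every library, Pou5f1 and Nanog among them) summed to 180408 to 201388 RPF reads in Nat1-/-, 109900 to 130788 in Nat1+/- and 89370 to 105890 in WT. Fibroblast markers summed to 162 to 261 RPF reads in Nat1-/-, 589 to 1585 in Nat1+/- and 3645 to 10802 in WT. Of their 11 genes, up to 5 stood at 0 in a Nat1-/- RPF library, up to 4 in a Nat1+/- one and 1 in each WT one, Lum (lumican) and S100a4 being the most frequent. Primitive endoderm markers summed to 3824 to 10509 RPF reads in Nat1-/-, 3704 to 7872 in Nat1+/- and 2080 to 3587 in WT, and early neural and mesoderm markers to 315 to 369, 381 to 504 and 607 to 769 in that order of genotypes. Members of both lists went different ways. Against WT, Nat1-/- RPF was higher for Gata4, Lama1 and Sox1 and lower for Dab2, Map2, Pax6 and T (limma adjusted p under 0.05). Against Nat1+/- it was higher for Sox1 and lower for Dab2, Map2 and Pax6. The median log2 fold change of the endoderm markers there was -0.68. Any cells of another type in these bulk cultures would enter every comparison below, but the cell types present were not measured. Fewer cells of a type and less RNA per cell cannot be told apart. The part of these marker and depth differences in the results was not tested.

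Between Nat1-/- and Nat1+/- clones, 6 of the 10 genes differed in RPF, 2 of them higher and 4 lower, and 9 of 10 in total RNA, 6 higher and 3 lower (limma on log2 values, two-sided, Benjamini-Hochberg adjusted p under 0.05). Of all genes tested, 36.1% differed in RPF (17.6% higher and 18.6% lower) and 40.0% in total RNA (19.8% higher and 20.2% lower). The median log2 fold change of the 10 genes was 0.29 in RPF, against 0.02 over all 13110 genes tested, and 0.76 in total RNA, against 0.01 over 13813. Those medians cover a wide spread in both directions. Dusp4, Dusp5 and Egr1 fell in both assays, Etv4 and Etv5 rose in both, and Spred1 fell in RPF with no call in total RNA. Nat1-/- and Nat1+/- values stood apart without overlap for 6 of 10 genes in RPF and 7 of 10 in total RNA, against 48.1% and 50.2% of all genes.

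**Figure D1:**
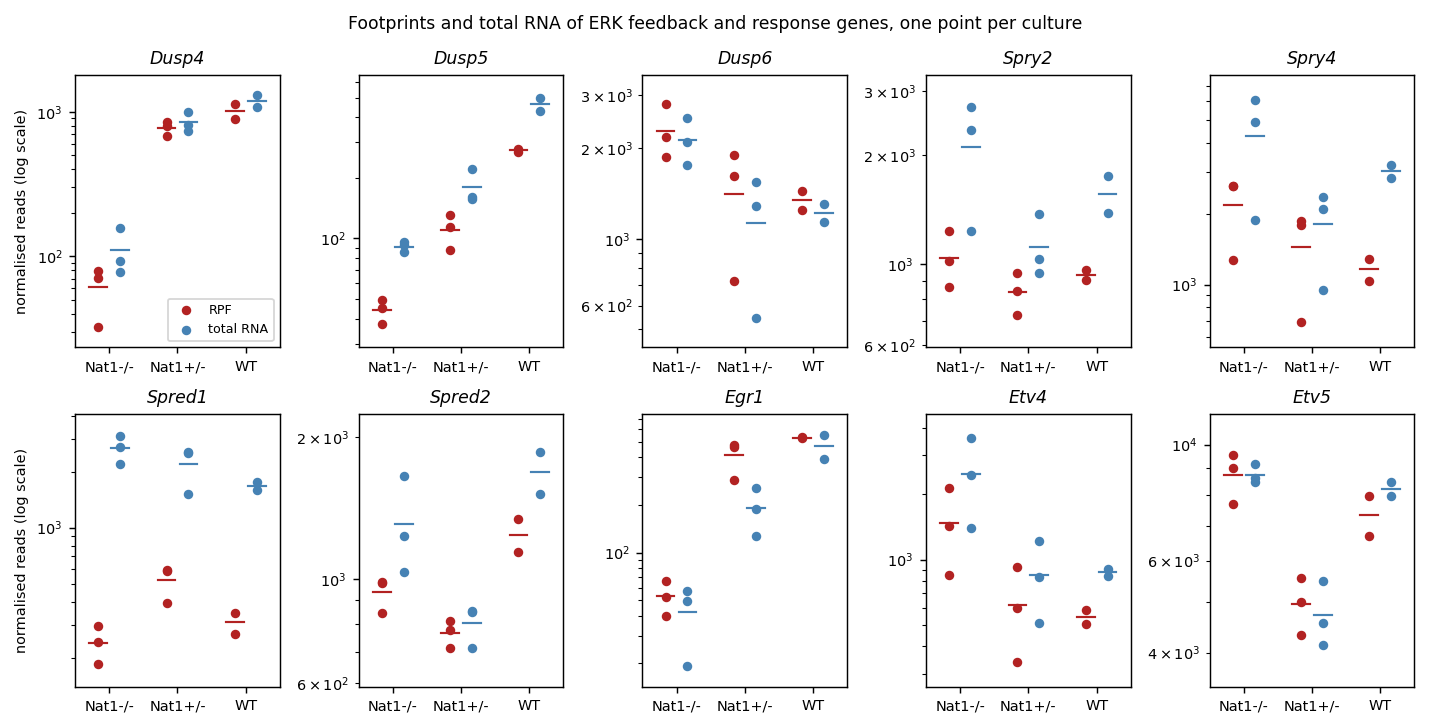
Normalised reads on a log scale for each gene in every culture, RPF in red and total RNA in blue, grouped as Nat1-/-, Nat1+/- and WT from left to right, with a line at each group's mean. The Dusp4 points of the 3 Nat1-/- clones sit between 32.4 and 79.7 in RPF, below all Nat1+/- points (678 to 851), whereas the Etv5 points of Nat1-/- (7681 to 9546) sit above all Nat1+/- points (4325 to 5561).

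Among the phosphatases, Dusp4, a nuclear enzyme that inactivates ERK, gave 32.4, 71.0 and 79.7 normalised RPF reads in the Nat1-/- clones, against 803, 678 and 851 in the Nat1+/- clones and 896 and 1139.6 in WT. Its total RNA was 78.1, 93.3 and 158 in Nat1-/-, 991, 741 and 805 in Nat1+/- and 1077 and 1309.6 in WT. The highest Nat1-/- clone stayed far below the lowest culture of either other genotype in both assays. Dusp4 fell 13.4-fold in RPF against Nat1+/- (log2 fold change -3.74 ± 0.30 SE, limma adjusted p = 5.0e-05) and 7.94-fold in total RNA (-2.99 ± 0.25, adjusted p = 4.7e-05).

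Dusp5, a nuclear phosphatase specific for ERK, had RPF values of 49.7, 45.3 and 37.6 in Nat1-/-, 131, 113 and 87.1 in Nat1+/- and 269 and 279 in WT. Total RNA of Dusp5 was 92.6, 85.3 and 95.4 in Nat1-/-, 160.0, 222 and 157 in Nat1+/- and 498 and 429 in WT. The 3 genotypes formed separate steps with no overlap in either assay, Nat1-/- lowest and Nat1+/- between it and WT. Against Nat1+/-, Dusp5 fell 2.45-fold in RPF (log2 fold change -1.29 ± 0.23 SE, limma adjusted p = 0.0027) and 1.94-fold in total RNA (-0.95 ± 0.20, adjusted p = 0.0048).

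Dusp6, the cytoplasmic ERK phosphatase, had RPF values of 2178, 2810.0 and 1867 in Nat1-/-, 1610.2, 727 and 1895 in Nat1+/- and 1243 and 1438 in WT. In total RNA it had 2100.0, 2511 and 1752 in Nat1-/-, 1283, 544 and 1547 in Nat1+/- and 1134 and 1305 in WT. The clone B4 was the lowest of all 8 cultures in both assays, and in RPF the Nat1+/- clone C1 reached just above the Nat1-/- clone C3. Dusp6 rose 2.04-fold in total RNA (log2 fold change 1.03 ± 0.33 SE, limma adjusted p = 0.0296) and had a log2 difference of 0.79 ± 0.31 in RPF that missed the threshold (adjusted p = 0.0759). The total RNA call was lost without B2 (adjusted p = 0.106), and the RPF difference passed without C1 (1.06, adjusted p = 0.0354).

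The Sprouty genes encode inhibitors of signalling from receptor tyrosine kinases to RAS and RAF. Spry2 had RPF values of 1018, 1233 and 866 in Nat1-/-, 847, 725 and 944 in Nat1+/- and 906 and 962 in WT, so the genotypes overlapped. Its total RNA was 2712, 2349 and 1237 in Nat1-/-, 1032, 946 and 1379 in Nat1+/- and 1746 and 1383 in WT. B12 and B2 were the highest cultures and C3 lay within the Nat1+/- range. Spry2 total RNA rose 1.80-fold against Nat1+/- (log2 fold change 0.85 ± 0.27 SE, limma adjusted p = 0.0305), while its RPF difference was 0.30 with a 95% interval of -0.06 to 0.67. The total RNA call was lost without A7, B2, B4 or B12 (adjusted p = 0.0827 to 0.112).

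Spry4 had RPF values of 2623, 2611 and 1274 in Nat1-/-, 1861, 694 and 1794 in Nat1+/- and 1037 and 1289 in WT. Its total RNA values were 6087, 4894 and 1873 in Nat1-/-, 2098, 952 and 2355 in Nat1+/- and 3237 and 2838 in WT. C3 again stood apart from the other Nat1-/- clones and B4 from the other Nat1+/- clones. The total RNA of Spry4 rose 2.28-fold against Nat1+/- (log2 fold change 1.19 ± 0.43 SE, limma adjusted p = 0.0486), a call at the edge of the threshold, and the RPF difference was 0.64 with a 95% interval of -0.23 to 1.51. The Spry4 call was lost without any one of A7, B2, B4, B12, WTex1 or WTex2 (adjusted p = 0.0642 to 0.183).

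Spred1 and Spred2 encode membrane-bound relatives of Sprouty that hold back the activation of RAF, and Spred1 does so together with the RAS-inactivating protein neurofibromin. Spred1 had RPF values of 185, 297 and 242 in Nat1-/-, 583, 392 and 589.9 in Nat1+/- and 269.6 and 349.5 in WT. Its total RNA was 3094, 2724 and 2207 in Nat1-/-, 2534, 1523 and 2563 in Nat1+/- and 1769 and 1596 in WT. The RPF values of all 3 Nat1-/- clones lay below all 3 Nat1+/- clones, whereas the total RNA values of these groups overlapped. Against WT, Nat1-/- RPF overlapped (log2 difference -0.37) and Nat1+/- RPF lay above both WT cultures (0.74), neither of them called. Spred1 fell 2.16-fold in RPF against Nat1+/- (log2 fold change -1.11 ± 0.23 SE, limma adjusted p = 0.0056). Its total RNA differed by 0.30 ± 0.21 (95% interval -0.16 to 0.77, adjusted p = 0.269).

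Spred2 had RPF values of 978, 985 and 845 in Nat1-/-, 779, 812 and 712 in Nat1+/- and 1342 and 1141 in WT. Spred2 total RNA was 1651, 1232 and 1035 in Nat1-/-, 854, 852 and 712 in Nat1+/- and 1857 and 1513 in WT. Nat1+/- was the lowest genotype in both assays, with no overlap with Nat1-/-. The total RNA of Spred2 rose 1.59-fold against Nat1+/- (log2 fold change 0.67 ± 0.18 SE, limma adjusted p = 0.0154), a call lost without C1 (adjusted p = 0.0580). In RPF the difference was 0.29 with a 95% interval of -0.02 to 0.59.

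Of the transcription factors, Egr1, a zinc finger factor of the immediate early response, had RPF values of 52.9, 66.6 and 39.9 in Nat1-/-, 467, 481 and 288 in Nat1+/- and 534 and 529.6 in WT. Its total RNA was 49.7, 57.3 and 19.4 in Nat1-/-, 189, 255 and 127 in Nat1+/- and 553 and 393 in WT. All Nat1-/- values lay below every other culture in both assays. Egr1 fell 7.59-fold in RPF against Nat1+/- (log2 fold change -2.92 ± 0.25 SE, limma adjusted p = 7.2e-05) and 4.70-fold in total RNA (-2.23 ± 0.40, adjusted p = 0.0022).

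Etv4 and Etv5 encode ETS factors of the PEA3 group, which FGF signalling induces in many tissues. Etv4 had RPF values of 2136, 1418 and 848 in Nat1-/-, 599, 338 and 925 in Nat1+/- and 586 and 508 in WT, so C3 lay below the Nat1+/- clone C1. In total RNA Etv4 had 3596, 2449.8 and 1392 in Nat1-/-, 834, 511 and 1212 in Nat1+/- and 908 and 843 in WT, with no overlap between Nat1-/- and the other genotypes. Etv4 rose 2.39-fold in RPF (log2 fold change 1.26 ± 0.38 SE, limma adjusted p = 0.0286) and 2.87-fold in total RNA (1.52 ± 0.35, adjusted p = 0.0075) against Nat1+/-. The RPF call was lost without A7, B2, B4 or B12 (adjusted p = 0.0636 to 0.0982).

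Etv5 had RPF values of 7681, 9546 and 9026 in Nat1-/-, 4325, 5561 and 5000.3 in Nat1+/- and 6675 and 7989 in WT. Etv5 total RNA was 8623, 9161 and 8461 in Nat1-/-, 4128, 5485 and 4551 in Nat1+/- and 7956 and 8461 in WT. Nat1+/- was the lowest genotype in both assays and Nat1-/- lay beside WT. Against Nat1+/-, Etv5 rose 1.77-fold in RPF (log2 fold change 0.82 ± 0.15 SE, limma adjusted p = 0.0031) and 1.86-fold in total RNA (0.90 ± 0.13, adjusted p = 6.7e-04).

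In a fit of the 5 cultures of low total RNA depth, the total RNA calls of Dusp6 (log2 fold change 1.03), Spry2 (0.63), Spry4 (0.85) and Spred2 (0.49) were lost (limma adjusted p = 0.0516 to 0.168), as was the RPF call of Etv4 (0.94, adjusted p = 0.103). Dusp6 thus kept the size of its difference. This fit leaves out B12 and both WT cultures, so its fold changes equal those without B12 alone. Depth and the clone B12 cannot be told apart in it. Without the variance trend, Dusp6, Spry2 and Spry4 in total RNA and Etv4 in RPF were lost (adjusted p = 0.0588 to 0.0976), with fold changes that this setting leaves as they were. The RPF and total RNA calls of Dusp4, Dusp5, Egr1 and Etv5, the RPF call of Spred1 and the total RNA call of Etv4 held in both fits.

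**Figure D2:**
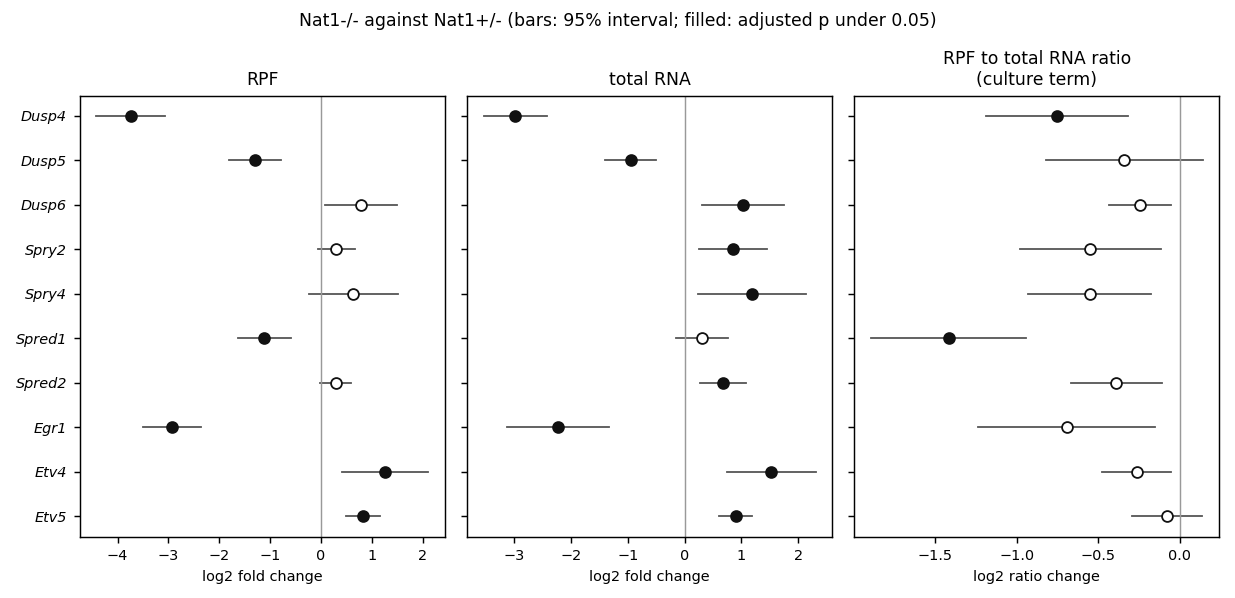
Log2 fold change of Nat1-/- against Nat1+/- for each gene in RPF (left), total RNA (middle) and the RPF to total RNA ratio with a culture term (right), with 95% intervals and filled points for an adjusted p under 0.05. Dusp4 (-3.74 in RPF), Dusp5 and Egr1 lie left of 0 in both assays and Etv4 and Etv5 right of it, and in the ratio Spred1 lies farthest left (-1.42).

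The RPF to total RNA ratio, taken as translational efficiency (TE), compares footprints with the mRNA they came from. For Spred1 its log2 value was -4.06, -3.19 and -3.19 in the Nat1-/- clones, -2.12, -1.96 and -2.12 in the Nat1+/- clones, and -2.71 and -2.19 in WT. All 3 Nat1-/- clones lay below all 5 other cultures. For Dusp4 it was -1.25, -0.39 and -0.98 in Nat1-/-, -0.30, -0.13 and 0.08 in Nat1+/- and -0.27 and -0.20 in WT. All Nat1-/- clones lay below the other cultures, B2 closest to them. For Spry4 it was -1.21, -0.91 and -0.56 in Nat1-/-, -0.17, -0.46 and -0.39 in Nat1+/- and -1.64 and -1.14 in WT. WT was the lowest genotype for Spry4 apart from B12, which lay just below WTex2.

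With RPF and total RNA libraries treated as separate samples, 0 of the 10 genes differed in TE between Nat1-/- and Nat1+/-, as against 0.580% of all genes (75 of 12933; 1356 genes had an unadjusted p under 0.05). Spred1 came closest, with a log2 difference of -1.42 ± 0.33 SE (limma adjusted p = 0.0750), which passed without C3 (-1.56, adjusted p = 0.0407). Both libraries of a culture come from the same cells, and with a term for the culture 2 of the 10 genes fell, against 9.26% of all genes. These were Spred1 (-1.42 ± 0.22 SE, limma adjusted p = 0.0026) and Dusp4 (-0.75 ± 0.20, adjusted p = 0.0270). Spry4 (-0.55, adjusted p = 0.0506) and Spred2 (-0.39, adjusted p = 0.0585) just missed the threshold. The ratio of Etv5 differed by -0.08 with a 95% interval of -0.30 to 0.14.

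The paired TE call of Spred1 held without each culture in turn (-1.13 to -1.56). In the 5 cultures of low total RNA depth its difference was also -1.13 (limma adjusted p = 8.9e-05). That is the difference found without B12, so this fit gives no separate estimate and cannot tell depth from that clone. The paired TE call of Dusp4 was lost in the same 5 cultures (-0.57, limma adjusted p = 0.0598) and without A7, B4, B12 or C1 (adjusted p = 0.0577 to 0.111). Spry4 passed in those 5 cultures (-0.39, adjusted p = 0.0490) and without WTex1 or WTex2 (-0.55, adjusted p = 0.0330 and 0.0334). C3 was the Nat1-/- clone with the highest ratio for 7 of the 10 genes. Without C3, 6 of the 10 genes differed in TE with the culture term, all lower in Nat1-/-. The 6 genes were Spred1, Dusp4, Spry4 (-0.72), Spry2 (-0.77), Egr1 (-0.98) and Spred2 (-0.47). Calls over all genes then numbered 2944 in either direction and were not split by direction. With all cultures they numbered 2037 of 12933, 839 higher and 1198 lower. Leaving out the clone with the highest ratio by itself lowers the Nat1-/- mean of a gene. TE values of Nat1-/- and Nat1+/- did not overlap for 6 genes, all lower in Nat1-/-, against 36.9% of all genes in either direction. The median TE difference of the 10 genes was -0.47, against 0.01 over all genes. Of the other pathway lists described below, it was -0.34 for other negative regulators and -0.30 for the RAS, RAF, MEK and ERK cascade. It was -0.24 for FGF ligand and receptor genes and -0.07 for other ERK-induced early genes. B12, whose total RNA library was deep, had the lowest ratio of its genotype for 8 of the 10 genes, and WTex1 for 9 of 10. WTex2, also deep, had the higher WT ratio for 9 of the 10. These ranks of cultures were not computed over all genes, and the part of depth in them was not tested.

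**Figure D3:**
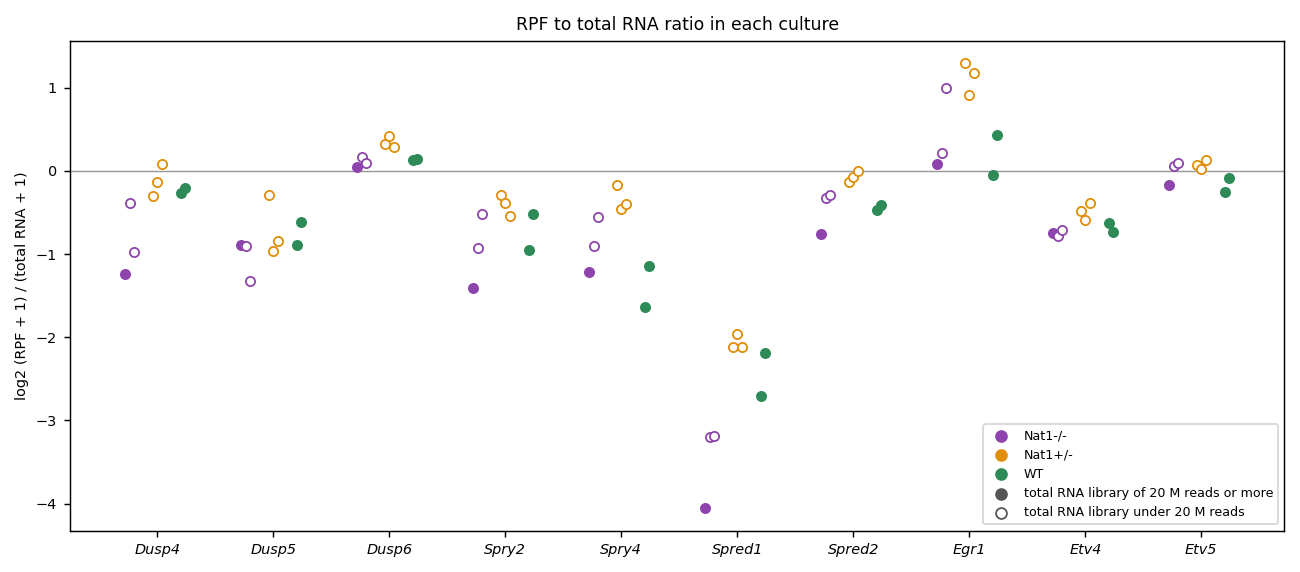
Log2 RPF to total RNA ratio of each gene in every culture, Nat1-/- in purple, Nat1+/- in orange and WT in green from left to right, filled where the total RNA library held 20 M reads or more. Spred1 ratios run from -4.06 to -3.19 in Nat1-/- and from -2.12 to -1.96 in Nat1+/-. B12, the filled purple point, is the lowest Nat1-/- point for 8 of the 10 genes, a rank not computed over all genes.

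Set against WT, Nat1-/- cultures differed in 4 of the 10 genes in each assay, against 34.8% of all genes in RPF (16.5% higher and 18.3% lower) and 35.0% in total RNA (16.2% higher and 18.9% lower). Dusp4, Dusp5 and Egr1 were lower and Etv4 higher in both assays. In RPF Dusp4 fell 17.5-fold (log2 fold change -4.13 ± 0.34 SE, limma adjusted p = 5.5e-05), Egr1 by 3.33 on the log2 scale (± 0.28, adjusted p = 6.1e-05) and Dusp5 6.12-fold (-2.61 ± 0.26, adjusted p = 1.1e-04). Their total RNA fell 11.2-fold, 11.9-fold and 5.03-fold in that order (adjusted p = 3.0e-05, 2.9e-04 and 8.3e-05). Etv4 rose 2.51-fold in RPF (1.33 ± 0.43, adjusted p = 0.0367) and 2.63-fold in total RNA (1.40 ± 0.39, adjusted p = 0.0199). The Etv4 call was lost in RPF without A7, B2, B12, WTex1 or WTex2 (adjusted p = 0.0540 to 0.163) and in total RNA without B2, WTex1 or WTex2 (adjusted p = 0.0579 to 0.106), and in both assays without the variance trend (adjusted p = 0.0727 and 0.0507). With 1 WT culture left, that culture is taken to vary as the targeted groups do, and the Etv4 log2 fold change was then 1.22 to 1.43 in RPF and 1.34 to 1.45 in total RNA.

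The other 6 genes did not pass in Nat1-/- against WT. Etv5 differed by 0.25 in RPF (95% interval -0.12 to 0.63) and 0.09 in total RNA (-0.23 to 0.41). Spred1 total RNA differed by 0.66 ± 0.23 (limma adjusted p = 0.0504) and passed without B4 or C3 (adjusted p = 0.0134 and 0.0271). Without B4, Dusp6 also passed in RPF and total RNA (adjusted p = 0.0165 and 0.0099, both higher), and without C3 so did Spry4 in RPF (adjusted p = 0.0483) and Spry2 in total RNA (adjusted p = 0.0224). Without B12, Spred2 passed in total RNA (-0.57, adjusted p = 0.0279). Other settings, listed at the end, also moved some of these genes past the threshold. Spred1 total RNA passed with DESeq2 (adjusted p = 0.0219), edgeR (0.0462), TMM scaling (limma, 0.0484), a pseudocount of 5 (limma, 0.0495) and 2 genotypes at a time (limma, 0.0278). Spred2 RPF passed with DESeq2 (-0.41, 0.0388) and equal library sums (-0.51, limma, 0.0288). Dusp6 passed in RPF and total RNA with 2 genotypes at a time (limma, 0.0283 and 0.0168).

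Nat1+/- cultures differed from WT in 2 genes in RPF and 3 in total RNA, all lower, against 5.13% and 5.41% of all genes that were lower. Dusp5 fell 2.50-fold in RPF (log2 fold change -1.32 ± 0.26 SE, limma adjusted p = 0.0218) and 2.60-fold in total RNA (-1.38 ± 0.23, adjusted p = 0.0117). Spred2 fell 1.61-fold in RPF (-0.69 ± 0.15, adjusted p = 0.0270) and 2.09-fold in total RNA (-1.06 ± 0.20, adjusted p = 0.0170). Etv5 fell 1.75-fold in total RNA (-0.81 ± 0.14, adjusted p = 0.0149), with -0.57 in RPF (adjusted p = 0.0584). Each of these 5 calls was lost without WTex1 and again without WTex2 (adjusted p = 0.0721 to 0.290), again with the spread taken from the targeted groups. Their log2 fold changes then ran between -1.27 and -1.48 for Dusp5 over both assays, -0.57 and -0.81 for Spred2 in RPF, -0.91 and -1.21 for it in total RNA, and -0.76 and -0.85 for Etv5. In those fits at most 23 genes of the whole table were called. The calls of Dusp5 in RPF, Spred2 in both assays and Etv5 were lost without A7 (adjusted p = 0.0580 to 0.0905). Without C1 the RPF calls of Dusp5 and Spred2 were lost as well, and without B2 that of Spred2 (adjusted p = 0.0534 to 0.0717). Without the variance trend the RPF call of Spred2 was lost (adjusted p = 0.0549). In the other direction, Etv5 RPF passed without B12 or C3 (adjusted p = 0.0326 and 0.0383), Spred1 RPF without B12 (0.74, adjusted p = 0.0484) and Egr1 total RNA without C3 (-1.34, adjusted p = 0.0165). Egr1 total RNA also passed with DESeq2 (-1.31, adjusted p = 0.0093), edgeR (-1.31, 0.0495) and 2 genotypes at a time (limma, -1.34, 0.0214). Etv5 RPF passed with DESeq2 (adjusted p = 0.0171), equal library sums (limma, 0.0493) and 2 genotypes at a time (limma, 0.0380). Spred1 RPF passed with DESeq2 (0.75, adjusted p = 0.0438). All comparisons with WT share its 2 cultures, which also held the highest fibroblast marker sums and deep total RNA libraries.

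Nat1-/- and WT values stood apart for 6 of the 10 genes in each assay, against 59.6% of all genes in RPF and 60.1% in total RNA, and Nat1+/- and WT values for 6 in RPF and 7 in total RNA, against 55.3% and 54.6%. In TE the groups stood apart for 3 genes between Nat1-/- and WT, against 27.2% of all genes, and for 7 between Nat1+/- and WT, all higher in Nat1+/-, against 43.8% in either direction. In TE, 0 of the 10 genes differed from WT in either targeted genotype without the culture term, against 0.00773% of all genes for Nat1-/- and 0% for Nat1+/- (328 and 663 genes had an unadjusted p under 0.05). With the term, Spry4 TE was higher in Nat1+/- than in WT (log2 difference 1.05 ± 0.19 SE, limma adjusted p = 0.0443), as were 0.696% of all genes. That call held without B12 or C3 and was lost without any of the other 6 cultures (adjusted p = 0.0612 to 0.337). Egr1 TE passed there without B12 or C3 (0.94 in both fits, adjusted p = 0.0360 and 0.0195). For Nat1-/- against WT, 0 of the 10 passed with the term, against 1.22% of all genes. Spred1 was nearest (-1.03 ± 0.24, adjusted p = 0.0731) and passed without B12 (-0.74, adjusted p = 0.0375) or C3 (-1.18, adjusted p = 0.0408).

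**Figure D4:**
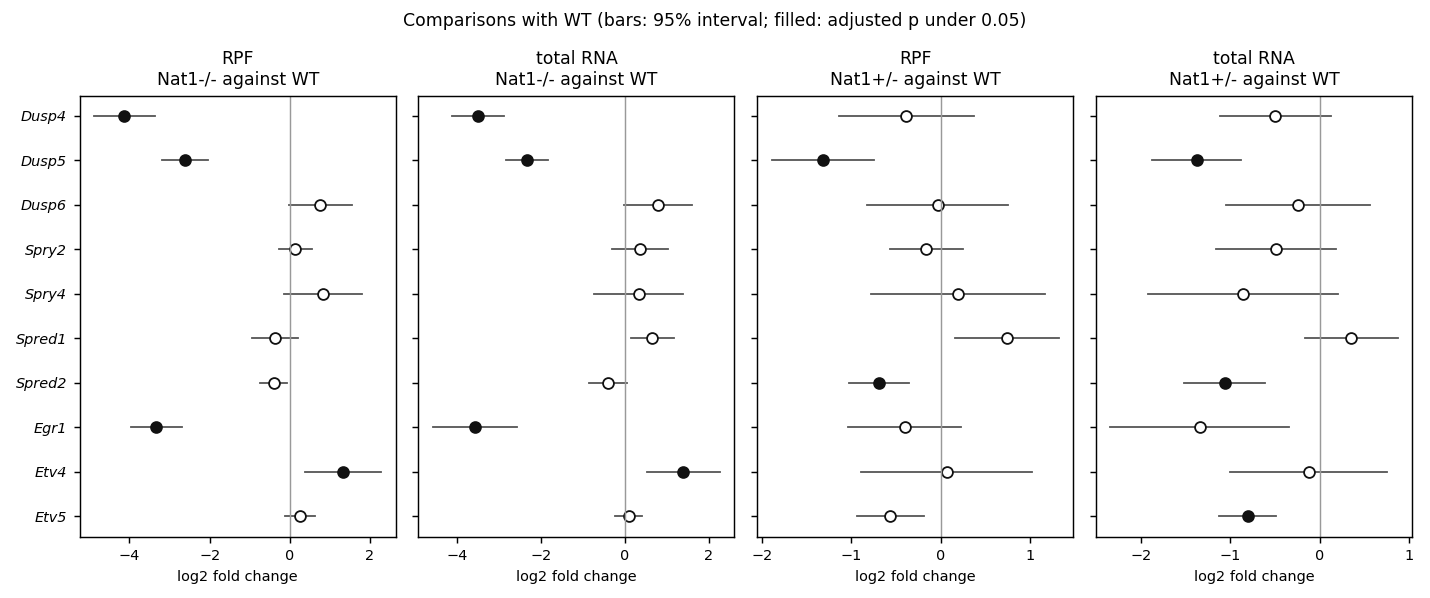
Log2 fold change of each gene in Nat1-/- against WT (left pair of panels) and Nat1+/- against WT (right pair), for RPF and total RNA, with 95% intervals and filled points for an adjusted p under 0.05. Dusp4, Dusp5 and Egr1 lie between -2.33 and -4.13 in Nat1-/- against WT, and of these 3 only Dusp5 is filled in Nat1+/- against WT (-1.32 in RPF and -1.38 in total RNA). Egr1 total RNA lies at -1.34 there, unfilled.

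The genes also differed between clones of one genotype, in ranks that were not computed over all genes. Among Nat1+/- clones, B4 was lowest for 6 of the 10 genes in both assays, namely Dusp4, Dusp6, Spry2, Spry4, Spred1 and Etv4, and highest for Egr1 and Etv5. B4 had 544 normalised reads of Dusp6 total RNA, against 1283 in A7 and 1547 in C1. It also had the highest fibroblast marker sum of its genotype, 1585 RPF reads against 622 in A7 and 589 in C1. Among Nat1-/- clones, C3 was lowest for 7 genes in RPF and 8 in total RNA, Dusp6, Spry2, Spry4, Spred2, Egr1 and Etv4 in both assays. C3 was the highest Nat1-/- clone for Dusp4 in both assays. It also had the highest primitive endoderm marker sum of its genotype, 10509 RPF reads against 7465 in B2 and 3824 in B12, whose part in these values was not tested. The total RNA of Spry4 ran between 1873 and 6087 normalised reads over the Nat1-/- clones, and that of Etv4 between 1392 and 3596.

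Other genes of the pathway were counted from lists, beside shares of all genes of 17.6% higher and 18.6% lower in RPF and 19.8% higher and 20.2% lower in total RNA. Of 9 FGF ligand and receptor genes, all tested, 2 were higher and 3 lower in Nat1-/- than in Nat1+/- RPF, and 2 higher and 4 lower in total RNA. Fgfr2 had a log2 fold change of -4.57 ± 0.40 SE in RPF (limma adjusted p = 7.1e-05) and -4.69 in total RNA. Fgfr3 had 3.09 ± 0.28 in RPF (adjusted p = 9.2e-05) and 3.33 in total RNA. Fgfr1, the main FGF receptor of embryonic stem cells, fell by 1.12 in RPF (adjusted p = 5.1e-04) and Fgf4, their ligand, rose by 0.69 (adjusted p = 0.0089).

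Of 22 genes of the RAS, RAF, MEK and ERK cascade, 4 were higher and 4 lower in RPF, close to the 17.6% and 18.6% of all genes, and 8 higher and 1 lower in total RNA (19.8% and 20.2% of all genes). Sos1, the exchange factor that loads RAS with GTP, had 348 ± 34.7 normalised RPF reads in Nat1-/-, 859 ± 60.6 in Nat1+/- (SD, n = 3 each) and 707 ± 109.6 in WT (SD, n = 2). Its log2 fold change against Nat1+/- was -1.30 ± 0.15 SE in RPF, and its TE differed by -1.70 ± 0.19 (limma adjusted p = 0.0018), the only gene of the list called in TE without the culture term. Nras and Shc1 rose in RPF by 0.83 and 0.82, and Rasa1, which inactivates RAS, fell by 0.64.

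Among other negative regulators of ERK signalling, 1 of 10 genes tested was higher (Dusp16, 0.90) and 2 lower (Dusp1, -1.07, and Dusp10, -2.33) in RPF, where 17.6% of all genes were higher and 18.6% lower. In total RNA 2 of 11 were higher (Dusp16, 1.33, and Dusp7, 0.78) and 1 lower (Dusp10, -3.03), against 19.8% and 20.2% of all genes. Among other ERK-induced transcription factors and early genes, 3 of 12 tested were higher in RPF (Myc, 1.42, Etv1, 1.02, and Fosl2, 0.96) and 1 lower (Ier5, -2.95). The same 4 genes were called in total RNA out of 13 tested (Myc, 1.97, Fosl2, 1.90, Etv1, 0.96, and Ier5, -3.46). Etv1, the third ETS factor of the PEA3 group, thus rose in both assays as Etv4 and Etv5 did. The median RPF log2 fold change was -0.29 for the negative regulators and 0.24 for the early genes, against 0.02 for all genes.

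Of the 10674 genes searched, with a mean RPF value of at least 50, those most like each member over the 8 RPF libraries were picked by Pearson's r of log2 values, as a description across 3 genotypes with no test. Dusp4 was followed most closely by Wscd1 and Adam19 (r = 0.995 for both), and Egr1 by Sulf1 (r = 0.995). For Dusp5 the nearest genes were Myrf (r = 0.987) and Hmgxb4 (r = 0.983). Etv4 ran closest to Eef2kmt (r = 0.992), Spred2 to Calm2 (r = 0.990) and Etv5 to Gpc4 (r = 0.981). The nearest genes of Dusp6, Spred1, Spry4 and Spry2 were Ap1m2 (r = 0.983), Ints10 (r = 0.976), Dgkq (r = 0.973) and Enc1 (r = 0.970). No chance level was computed for these values.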

How the data were processed

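A ribosome profiling kit gave both the RPF and the total RNA library of each of the 8 cultures, per the labels' protocols. The values are a signal that the authors deposited, namely counts of reads per gene scaled by DESeq2 with 1 factor for each library, going by the submitters' processing notes. The notes list the tools bcl2fastq 2.17, cutadapt 1.9.1 and HTSeq 0.6.1, the aligners TopHat2 2.1.0 and Bowtie2 2.2.8, and the genome builds GRCm38.p4 and mm10. How strand, reads mapping to several places and footprint lengths were handled is not given. Whole reads were recovered for 100% of values within 0.001. The factors set the median gene of each assay equal, so that a shift common to most genes is not seen.

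RPF and total RNA were each fitted on log2(value + 1) over 8 libraries with limma 3.58.1 in R 4.3.3 (trended eBayes, 3 genotype means, genes with a mean of at least 10). Fold changes are on that scale and understate changes of low genes. TE was the interaction of assay and genotype over 16 libraries, fitted without and with a culture term. The culture term rests on the labels, which give the RPF and the total RNA library of a culture the same clone or replicate. Deviations from the genotype means were shared by the pair of libraries of a culture (r = 0.384 to 0.821 across genes, and 8 of 8 libraries matched their own partner best). Centring sets the cultures of a genotype against each other, and the 2 WT cultures mirror each other, so these matches are not independent. A gene was called at an adjusted p under 0.05 (Benjamini-Hochberg over all genes of a comparison, two-sided), and p-values measure the spread between these cultures. No replicates agreed within sampling noise (chi-square over degrees of freedom 13.1 to 120), so none was counted as a repeat. Exact permutation tests could not go below 0.1 with 3 against 3 or 3 against 2 cultures.

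The members and gene lists were chosen with earlier results of these data known. Named genes are the 10 members, Eif4g2, in each assay the genes of a list with its lowest adjusted p (4 at most), and, of the 2 genes most like each member, the nearest or both. One such gene is not reported here. Alternatives were other pseudocounts (0.5 and 5), filters, scalings (equal sums, TMM) and variance settings, count models on recovered reads (DESeq2 1.42.0, edgeR 4.0.16), 2 genotypes at a time, blocks, shallow libraries only, and leaving out each culture. The fits without a culture term were run on simulated reads for Nat1-/- against Nat1+/- alone. Those reads held no effect of the culture, so the fit with the culture term was not tested in this way. Levels were not compared between genes, since transcript lengths were not used here.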

Additional observations from a re-analysis of the deposited data

How the results depend on the processing

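Of the 28 calls of a member in RPF or total RNA, 16 held under every alternative run, among them all those of Dusp4 and Egr1, those of Dusp5 in Nat1-/-, those of Etv5 and Spred1 between Nat1-/- and Nat1+/-, and Etv4 total RNA between the same groups. The other 12 were lost somewhere, the total RNA call of Spry4 most often (held in 5 of 13 alternatives and 2 of 8 fits without a culture). No direction of a call reversed.

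The number of members called between Nat1-/- and Nat1+/- (6 in RPF, 9 in total RNA and 0 in TE) was 5 in total RNA with shallow libraries only. Total RNA calls over all genes were then 4174, against 5519 with all libraries. In TE the number of members called was 1 with equal library sums and with DESeq2, and 2 with the replicate block by culture (Spred1 and Dusp4). In shallow libraries only with the block it was also 2, but Spred1 and Spry4. For Nat1+/- against WT it was 2 in RPF, but 1 without the variance trend, 4 with DESeq2 and 0 with a replicate block. In TE it was 0, and 1 with the replicate block by culture. Without 1 culture the counts ran between 5 and 7 in RPF, 6 and 9 in total RNA and 0 and 1 in TE for Nat1-/- against Nat1+/-, where the calls over all genes ran between 2821 and 5464, 3608 and 6261 and 6 and 376. Members called ran between 3 and 5, 3 and 6 and 0 and 0 for Nat1-/- against WT, where calls over all genes reached at most 5122, 5216 and 5. For Nat1+/- against WT members called reached at most 4, 4 and 0, where calls over all genes reached at most 2634, 2846 and 2. The member calls of that comparison were all lost in fits with 1 WT culture left, as given above, where the spread comes from the targeted groups. Whether the replicate numbers pair cultures across genotypes is not known. Correlations of deviations between cultures of the same number ran from -0.19 to 0.34, and cultures of unlike numbers were not compared. The block on these numbers left 2 members called in total RNA for Nat1+/- against WT, in place of 3.

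Over all genes, TE calls between Nat1-/- and Nat1+/- were 75 without a culture term and 2037 with it, 128 with equal sums, 113 with TMM, 28 without the trend, 400 with DESeq2, 21 with 2 genotypes in the fit and 6 in shallow libraries (1924 with the term). For the comparisons with WT they were 1 and 0, 158 and 146 with the term and 35 and 15 with DESeq2. Between Nat1+/- and WT, 1374 RPF and 1383 total RNA calls became 481 and 549 without the trend, 2521 and 2549 with DESeq2, 2638 and 2768 with 2 genotypes and 162 and 190 with a replicate block. The cause of these differences was not tested. Equal sums moved the median of all genes for Nat1-/- against WT to -0.08 in RPF and -0.10 in total RNA, against 0.03 and 0.02 as deposited. The fits of the culture term in shallow libraries and without 1 culture were chosen after seeing the data. Read counts were lowest in Nat1-/- for Egr1 (13 total RNA reads in C3), Dusp4 (30 RPF reads in B12) and Dusp5 (33 RPF reads in C3).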
